A study of Mus musculus with 192 samples.

Results

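The 10 imprinted genes H19, Igf2, Igf2r, Meg3, Peg3, Dlk1, Mest, Plagl1, Cdkn1c and Ndn were followed through single embryonic fibroblasts in which the 5′ ends of polyadenylated RNA had been sequenced. They were chosen by name from 18460 genes that the RefSeq annotation of the start-site clusters names. A cluster is a window of 150 bp, and a member was counted from the peaks on its own strand in windows within 1000 bp of one of its annotated starts. Of the 10 members, 2 had such a peak in any kept cell, Mest and Meg3, and the other 8 had none. Igf2, Peg3, Plagl1 and Ndn were named by no window at all. Among all genes named, 11731 (63.5%) had a sense promoter peak, but that table names a gene only where a window lies nearest to it, so the shares do not have the same denominator.

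The cells were C57BL/6 mouse embryonic fibroblasts (primary cells of embryonic connective tissue), 96 labelled naïve and 96 labelled pretreated. Every cell, in both groups, had received interferon-beta at 100 U/ml for 1 h, so there was no unstimulated control. The nature of the pretreatment is not given in the labels, nor is the culture or animal of any cell. Each group is therefore 1 sample made of single cells, no difference was tested, and intervals cover counting error only. For log2 ratios what is counted is reads, so the counting error of RNA molecules and the spread between cells are not covered. The study set out to map alternative transcription start sites in interferon-stimulated fibroblasts.

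Imprinted genes are transcribed mainly from the copy inherited from one parent, a choice written as DNA methylation in the germ line and read at control regions that often serve several neighbouring genes. Many act on fetal growth, and paternally expressed members often promote growth while maternally expressed members often restrain it. Of the members, Igf2, Peg3, Dlk1, Mest, Plagl1 and Ndn are paternally expressed, and H19, Igf2r, Meg3 and Cdkn1c maternally expressed. Igf2r is the textbook case of silencing by an overlapping RNA: the long non-coding RNA Airn starts inside Igf2r, runs across the Igf2r promoter on the opposite strand, and is made from the paternal copy. The tags here carry no parental information, so the parent of origin was not measured.

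The promoter sequences of Mest, Meg3 and Igf2r are shown for reference, and no start-site result below rests on them. They come from RefSeq on GRCm38.p6, the tags are on mm9, and no position was carried from one build to the other. Each runs from 120 bases before the annotated start to 20 bases from it, 5′ to 3′ along the gene. Capitals mark the annotated start base and, in the upstream Meg3 promoter, a TATAAA motif.
Mest, chr6:30737933-30738072, + strand, with a pair of annotated starts 3 bp apart: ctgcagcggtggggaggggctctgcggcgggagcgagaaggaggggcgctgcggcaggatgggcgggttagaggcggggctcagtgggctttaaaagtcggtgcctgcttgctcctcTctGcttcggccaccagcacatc
Meg3, upstream start, chr12:109540876-109541015, + strand: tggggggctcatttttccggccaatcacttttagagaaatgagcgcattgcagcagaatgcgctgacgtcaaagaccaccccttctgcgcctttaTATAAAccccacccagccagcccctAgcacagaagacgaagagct
Meg3, downstream start, chr12:109545278-109545417, + strand: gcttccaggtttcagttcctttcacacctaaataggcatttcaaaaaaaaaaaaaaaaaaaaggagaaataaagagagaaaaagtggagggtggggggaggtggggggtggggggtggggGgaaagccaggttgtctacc
Igf2r, chr17:12769687-12769826, − strand: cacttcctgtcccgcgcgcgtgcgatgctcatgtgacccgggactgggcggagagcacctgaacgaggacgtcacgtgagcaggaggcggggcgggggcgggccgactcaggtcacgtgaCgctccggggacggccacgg

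The kept cells, those with at least 10% of the median total of all cells, numbered 92 naïve and 85 pretreated. Their totals ran from 305066 to 3857034 tags in naïve cells (median 2305630) and from 502374 to 13174313 in pretreated cells (median 2650490). The files of the groups differed in more than level: 1287 peaks lay on the mitochondrial chromosome in naïve cells and 0 in pretreated cells, and the median focus ratio per cell, the fraction of its tags that sit near a peak's centre, was 0.978 and 0.947. Unequal processing of the files and an effect of the pretreatment cannot be told apart. Of 8 fibroblast markers all had a sense peak, with a summed level of 4360 tags per 1000000 (CPM) in naïve and 5570 in pretreated cells, of which Sparc alone held 2958 and 3817 and was listed in 92 of 92 and 85 of 85 cells. Pdgfra was listed in 10 and 6 cells (9.76 and 2.53 CPM) and Thy1 in 1 and 0 cells. Both were under the minimum level of 10 CPM used below, and the 6 markers that reached it were within 2-fold. Fn1 lay near that limit (log2 ratio −0.97) and was past 2-fold lower under the median-of-ratios scaling used below (−1.35). All 5 epithelial and all 5 skeletal muscle markers had no listed peak, and the summed level was 0 and 2.76 for 5 endothelial markers, 8.32 and 1.68 for 5 blood markers, 0.33 and 3.13 for 4 cartilage markers, 3.63 and 10.9 for 5 neural markers and 17.1 and 19.4 for 5 fat-cell markers. Of 8 interferon-response genes, 7 reached that minimum and 6 were past 2-fold higher in pretreated cells, beside 30.4% of all genes at that level. Ifit1 was within 2-fold (log2 ratio 0.96), and Isg15, at 5.31 and 4.37 CPM, was under the minimum. The summed level of all 8 was 1345 CPM in naïve against 6188 in pretreated cells. The part of these differences in the results on the imprinted genes was not tested.

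Mest, a paternally expressed gene for a hydrolase-like protein of mesoderm-derived tissue, was the member with the clearest difference. It had a promoter peak in 14 of 92 naïve cells (15.2%, exact 95% interval 8.58 to 24.2) and in 37 of 85 pretreated cells (43.5%, 32.8 to 54.7). In the naïve cells that listed it, its signal was lowest at 256.8, had a median of 523.95 and reached 2364.9 tags per 10000000 tags of the cell. In the pretreated cells the lowest value was 218.9, the median 848.7 and the highest 5996.7. The ranges overlapped, and values over 1000 were seen in 3 naïve and 15 pretreated cells. More pretreated cells therefore listed Mest, and the top of their range was higher. Pretreated cells also listed more peaks in all, a median of 6605 per cell against 5231.5 in naïve cells, and the part of this in the Mest counts was not tested.

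With the tags of all cells of a group added up and divided by their total tags (CPM, tags per 1000000), Mest held 1646 tags in naïve cells, 8.10 CPM, and 15719 in pretreated cells, 54.8 CPM. The log2 ratio of pretreated over naïve was 2.76 (2.69 to 2.83). Mest was the 1 member called higher, where called means past 2-fold with at least 10 CPM in either group. Among the 5163 genes that reached this level, 30.4% were called higher and 11.8% lower, and their median log2 ratio was 0.45. After median-of-ratios scaling, which moved all genes by 0.39 on the log2 scale, these shares were 18.3% and 18.5%, and the ratio of Mest was 2.37. No single cell made the difference: without the cell with the most Mest tags in each group it was 2.86.

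**Figure D1:**
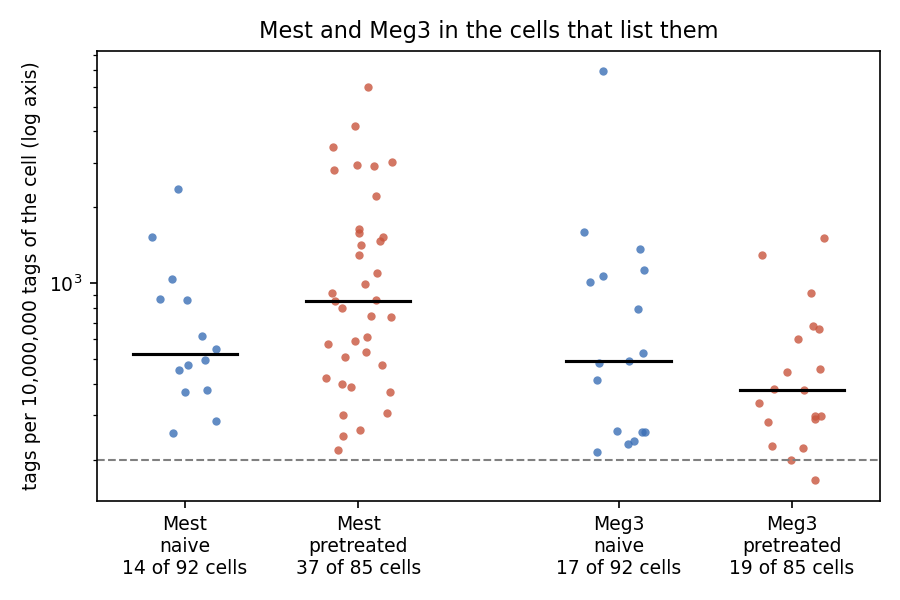
Signal of Mest and Meg3 in each cell that lists them, in tags per 10000000 tags of the cell on a log axis, with 1 point per cell, a bar at the median of those cells and a dashed line at the calling minimum of 200. Mest is listed in 14 of 92 naïve and 37 of 85 pretreated cells, and 1 naïve cell stands far above the other cells that list Meg3.

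The starts of Mest were almost fixed. The deposited distances are from the middle of a 150 bp peak to an annotated start. The annotated starts used here are those on mm9, also a pair 3 bp apart, with the downstream one, NM_001252292, as the reference. RefSeq on GRCm38.p6 also holds a Mest promoter farther upstream (chr6:30733256-30733555), not printed above. No window named Mest was assigned to a start there. In naïve cells, 13 of 14 peaks sat at a distance of 1 bp, with 1594 of the 1646 tags, and the other at 82 bp in 1 cell with 52 tags. In pretreated cells, 23 of 37 peaks sat at 1 bp with 11231 tags, another 12 lay between −4 and 3 bp, and 1 cell each had its peak at 235 bp with 155 tags and at 237 bp with 1736 tags. Peaks within 10 bp of the start thus made up 92.9% in naïve and 94.6% in pretreated cells. Over 3995 genes listed in at least 10 cells of both groups, measured from each gene's leading start, the median share within 10 bp was 5.88% and 6.25%, and Mest exceeded 98.2% and 98.9% of these genes. The median over genes of a gene's median distance was 33 bp and 32 bp downstream, so a peak on the annotated start itself was uncommon in these files. The share within 10 bp thus also depends on where the annotated start lies. The share of peaks at a gene's commonest position does not. For Mest that share was 92.9% in naïve and 62.2% in pretreated cells, beside medians of 25.7% and 18.1% over these genes.

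By the deposited nearest start, all naïve Mest tags belonged to NM_001252292. In pretreated cells that start held 13890 tags (88.4%) in 29 cells, and NM_008590, 3 bp upstream, held 1829 tags (11.6%) in 8 cells. Since the annotated starts lie 3 bp apart, the split follows the scatter of a few bp between cells. On mm9 the main window is chr6:30687980-30688129, annotated as promoter, and the window of the cells at 235 and 237 bp, chr6:30688214-30688363, lies in the 5′ UTR of exon 1. All 5 windows named for Mest lay within 1000 bp of these starts, and none had a peak on the opposite strand. The focus ratio of Mest peaks had a median of 0.980 in naïve and 0.949 in pretreated cells, beside 0.956 and 0.897 over all sense promoter peaks.

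**Figure D2:**
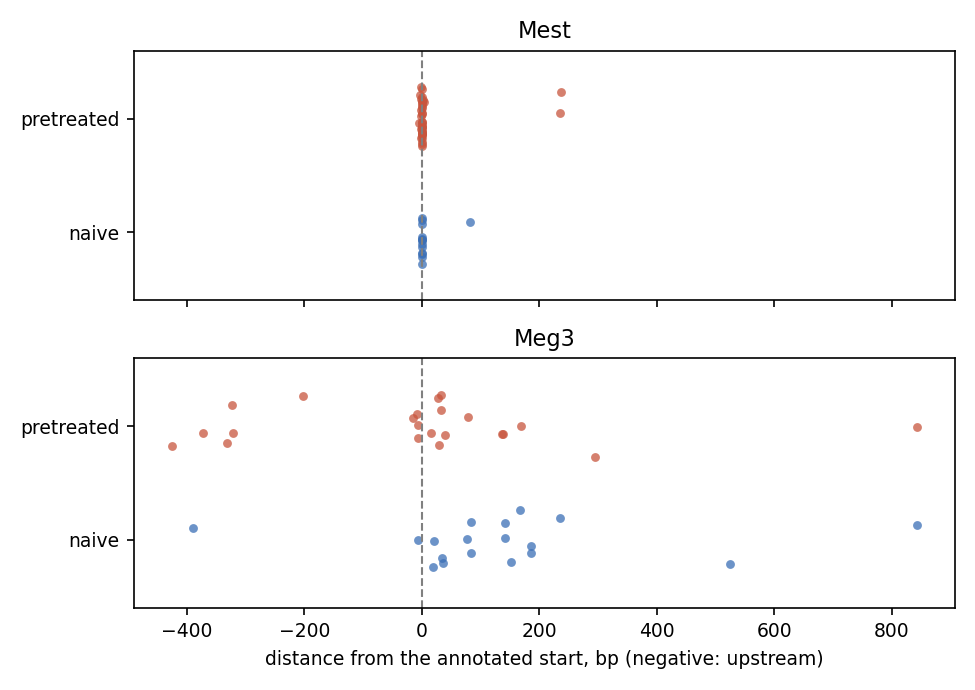
Distance of each sense peak of Mest and Meg3 from the leading annotated start in bp, negative upstream, with 1 point per peak and the groups on separate rows with vertical scatter for legibility. Of the Mest peaks, 13 of 14 and 35 of 37 lie within 10 bp of the start, while Meg3 peaks run from −390 to 844 bp in naïve and from −426 to 844 bp in pretreated cells.

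Meg3, a maternally expressed long non-coding RNA of the cluster on chromosome 12 that also holds Dlk1, was listed about as widely in both groups but scattered over its promoter. It had a peak in 17 of 92 naïve cells (18.5%, 11.2 to 27.9) and 19 of 85 pretreated cells (22.4%, 14.03 to 32.7). Its signal in naïve cells was lowest at 214.4, had a median of 491.7 and was highest at 6918.9, with the next cell at 1592.7. In pretreated cells the lowest value was 166.3, the median 377.5 and the highest 1517.5. Apart from that 1 naïve cell the ranges covered nearly the same span.

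Pooled, Meg3 held 4310 tags in naïve cells, 21.2 CPM, and 2801 in pretreated cells, 9.77 CPM, a log2 ratio of −1.12 (−1.19 to −1.05). By the rule this is the 1 member called lower, beside 11.8% of all genes tested. The call rests on naïve cell 57, which held 51.7% of the naïve Meg3 tags in a pair of peaks, at −6 bp with 1640 tags and at −390 bp with 588 tags. Without the top cell of each group the log2 ratio was −0.52, with each cell weighing the same it was −0.72, and with both strands counted −0.81, none of which is past 2-fold.

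Every sense promoter peak of Meg3 lay nearest to its downstream annotated start, NR_003633. The upstream start, NR_027651, lies 4402 bp before it and had no sense peak in either group. Around the downstream start the 18 naïve peaks took 15 positions, with a median of 112.5 bp downstream and an interquartile range of 147 bp. The 22 pretreated peaks took 21 positions, with a median of 21.5 bp and an interquartile range of 223.5 bp. Peaks more than 10 bp upstream numbered 1 in naïve and 7 in pretreated cells, and those more than 10 bp downstream 16 and 12. Windows 137 to 186 bp downstream are annotated as the end of another transcript, NR_035440, and the window at 186 bp held 774 naïve tags. Meg3's interquartile range exceeded that of 91.3% of the 3995 genes in naïve cells and 94.1% in pretreated cells. Mest, with 0 bp and 1 bp, lay at the opposite end.

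The printed promoters also differ in sequence. The upstream Meg3 promoter holds TATAAA 25 to 20 bases before the start, a motif found on either strand in 13.6% of the 32851 RefSeq promoters of 300 bases, and CCAAT 100 to 96 bases before it (37.4%). A match to TATAAA on the other strand, 29 to 24 bases before the start, overlaps the first. The downstream Meg3 promoter holds a match on neither strand to these motifs, to the GC box GGGCGG, or to the core of the interferon-stimulated response element (3.44% of promoters). It holds 1 CG in 300 bases, where the median promoter has 7 and 5.43% of promoters have fewer than 1. It also holds a run of 20 A from 78 to 59 bases before the start, as long as in 89 promoters (0.271%), a feature looked for after the sequence had been seen. Mest has GGGCGG 60 to 55 bases before its downstream start, a motif in 35.7% of promoters, and 17 CG. A motif match is a description of these letters and was not tied to the tags.

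Meg3 windows also held tags on the opposite strand, 560 in 3 naïve cells and 1123 in 7 pretreated cells. Of these, 560 tags in 3 cells and 1072 in 6 cells lay in the window at chr12:110784516-110784665 on mm9, 982 bp downstream of the NR_003633 start in exon 1. Unlike the sense peaks, the antisense ones shared a position across cells. Mest and Meg3 were both listed in 3 naïve and 6 pretreated cells, where the product of their shares would give 2.59 and 8.27. Their Spearman correlation over the cells of a group was 0.03 in 92 naïve and −0.15 in 85 pretreated cells, values that share each cell's depth and calling minimum. Neither gene reached 20% of the cells in both groups, the level set for naming the genes most like a member.

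Igf2r, the maternally expressed receptor that carries IGF2 to the lysosome, had no sense tag within 1000 bp of its start in either group. Its promoter window in RefSeq is CG-rich, with 34 CG (92.3% of promoters have fewer) and 3 GGGCGG matches. On the opposite strand, that of Airn, the same promoter windows held 362 tags in 3 naïve and 635 tags in 3 pretreated cells. Across all windows named Igf2r or Airn, which run from about 47 kb before the Igf2r start to 59 kb past it, the + strand of Airn held 251 peaks and the − strand of Igf2r 28. Tags at this locus were thus mostly on the strand opposite Igf2r.

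At least 1 peak on the Airn strand was listed in 60 of 92 naïve cells (65.2%, 54.6 to 74.9) and 60 of 85 pretreated cells (70.6%, 59.7 to 79.98). The summed signal of a listing cell ran from 206.3 through a median of 935.95 to 5523.4 in naïve cells, and from 239.5 through 800.3 to 11272 in pretreated cells, ranges that overlapped. Pooled, the strand held 81.2 CPM in naïve and 99.9 in pretreated cells, of which the top cell of each group held 9.97% and 16.1%. The Igf2r strand held 7.46 and 4.19 CPM, in 13 cells of each group. Airn starts 28395.5 bp inside Igf2r, and 112 of 113 naïve and 138 of 138 pretreated peaks on its strand lay downstream of that start along Airn. Of these, 66 and 90 lay between the starts of Airn and Igf2r, and 46 and 48 beyond the Igf2r start.

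Most Airn-strand peaks lay away from the annotated Airn start, and some gathered in the same places. With peaks whose middles lie within 100 bp of the next joined, a distance chosen after the positions were seen, the 251 peaks formed 116 clusters. Of these, 71 were seen in 1 cell each and 11 in at least 5 cells, and the 11 held 93 of the peaks. The cluster in most cells, at chr17:12945571-12945878 on mm9 in intron 1 of Igf2r, was seen in 10 naïve and 12 pretreated cells with 882 and 3220 tags. It lies 16769 to 16927 bp inside Igf2r, and the stretch from 15 to 20 kb around it held 26 naïve and 38 pretreated peaks. The windows at the annotated Airn start held 174 tags in 2 naïve cells and 762 tags in 4 pretreated cells, 0.86 and 2.66 CPM. By the deposited annotation most of the others lay in introns, with 115 peaks in intron 1 of Igf2r (NM_010515) and 63 in intron 2 of the Airn transcript NR_027784. The median focus ratio of these peaks was 0.982 in naïve and 0.985 in pretreated cells, beside 0.956 and 0.897 over all sense promoter peaks.

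**Figure D3:**
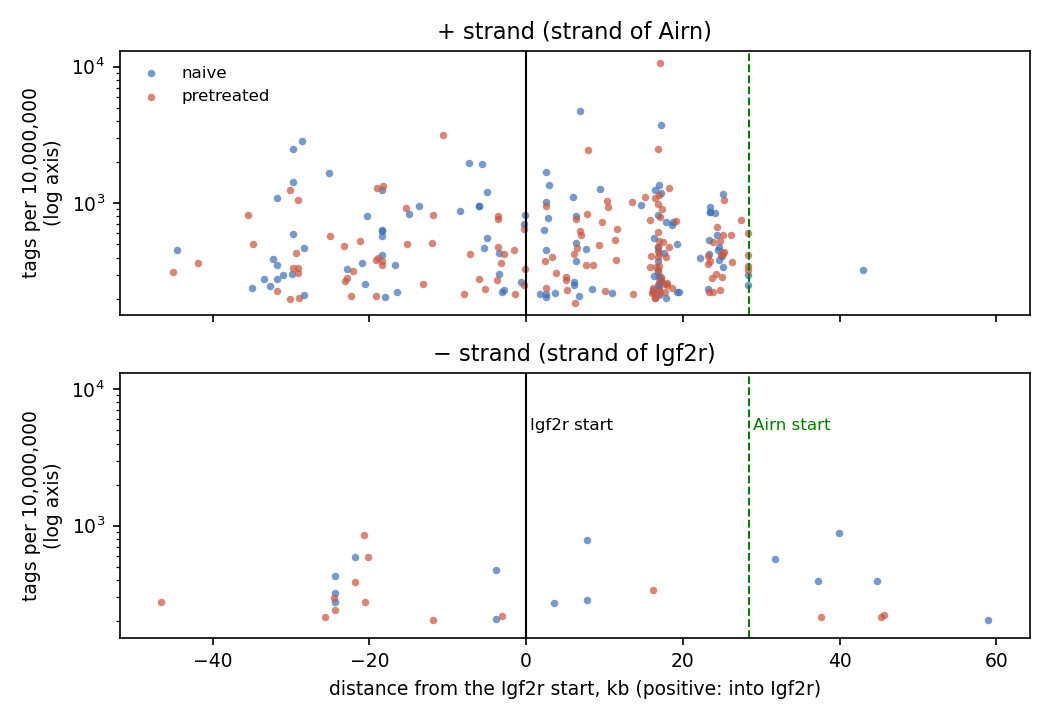
Peaks in windows named Igf2r or Airn, with the distance from the Igf2r start in kb along Igf2r on the x axis and the signal in tags per 10000000 tags of the cell on a log y axis, 1 point per peak and 1 panel per strand. The Airn strand holds 251 peaks, all but 1 on the side of the Airn start toward which Airn runs, and the Igf2r strand 28.

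The other maternally expressed members were close to absent. H19, a long non-coding RNA next to Igf2, was named by 1 window, 34566 bp from its start, with 33 tags on the opposite strand in 1 naïve cell. Cdkn1c, an inhibitor of cyclin-dependent kinases, was named by 1 window 2229 bp from its start, with 177 sense tags in 2 naïve cells. Both had 0 tags in pretreated cells. Of the paternally expressed members beside Mest, Dlk1 is a membrane protein of the Notch ligand family that shares the Meg3 cluster. It was named by 2 windows, the nearer at 17358 bp, with 423 sense tags in 2 naïve cells and 0 in pretreated cells. The windows named for Dlk1 and H19 are annotated as intergenic, and the window named for Cdkn1c as 3′ UTR, in exon 4 of 4. Igf2 (a fetal growth factor), Peg3 and Plagl1 (zinc finger proteins) and Ndn (a MAGE family protein) were listed nowhere. A gene without a listed peak is not one shown to lack RNA, because a peak needed about 20 CPM of the cell in 1 window.

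Other imprinted genes gave a background for the members. They were listed by name, and whether each is imprinted in these fibroblasts was not measured. Of a list of 56, 28 had a sense promoter peak and 15 reached 10 CPM in either group. Of these 15, 7 were past 2-fold higher, 1 lower and 7 within 2-fold, beside 30.4% higher and 11.8% lower among all genes tested. Their median log2 ratio was 0.99 against 0.45. Under median-of-ratios scaling 3 were higher and 2 lower, beside 18.3% and 18.5% of all genes. The 5 with the most tags were all within 2-fold. Cd81, a tetraspanin, held 461 and 575 CPM. Commd1 held 243 and 306, and Grb10, an adaptor that dampens insulin and IGF receptor signalling, held 231 and 237 (log2 ratio 0.04, 0.02 to 0.05). Gnas, the stimulatory G protein subunit, held 129 and 198. Sgce, a dystrophin-associated membrane protein, held 90.5 and 53.6 (log2 ratio −0.76), and was past 2-fold lower under median-of-ratios scaling.

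Grb10 was listed in 71 of 92 naïve and 79 of 85 pretreated cells, far more often than any of the 10 members. Its tags came from 1 annotated start, NM_010345, which held 99.8% of them in naïve and 100% in pretreated cells. Gnas, a locus with several promoters of differing imprinting, had 99.2% and 97.7% of its tags at NM_001364030. Copg2, a coat protein gene that neighbours and overlaps Mest, was past 2-fold higher as Mest was, at 5.59 and 26.1 CPM (log2 ratio 2.22, 2.14 to 2.32) in 8 and 28 cells. Copg2 and Mest were listed together in 2 naïve and 12 pretreated cells, where the product of shares would give 1.22 and 12.2. The neighbours were thus not seen in the same pretreated cells more often than their separate shares give.

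The other genes called higher among the 56 differed widely in how many cells listed them. Pon3, a lactonase, was higher at 41.98 and 86.3 CPM in 48 and 71 cells, and Blcap at 16.3 and 41.3 in 14 and 40 cells. The next 4 and the 1 gene called lower go beyond the 8 names set for a list and were named after their values were seen. H13, a signal peptide peptidase gene, was listed in 2 naïve and 29 pretreated cells (0.71 and 14.6 CPM). Axl, a receptor tyrosine kinase, was listed in 2 and 20 cells (0.94 and 11.04), Trappc9 in 3 and 16 (3.19 and 13.6) and Tssc4 in 5 and 11 (5.04 and 10.8). Without the top cell of each group, Axl and Tssc4 no longer reached the minimum level. The 1 call in the other direction was Asb4, at 12.98 and 3.43 CPM in 16 and 7 cells (log2 ratio −1.92). Of the 7 called higher, Copg2, Trappc9 and H13 were those left under median-of-ratios scaling, where Axl had a log2 ratio of 3.16 but lay under the minimum level.

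**Figure D4:**
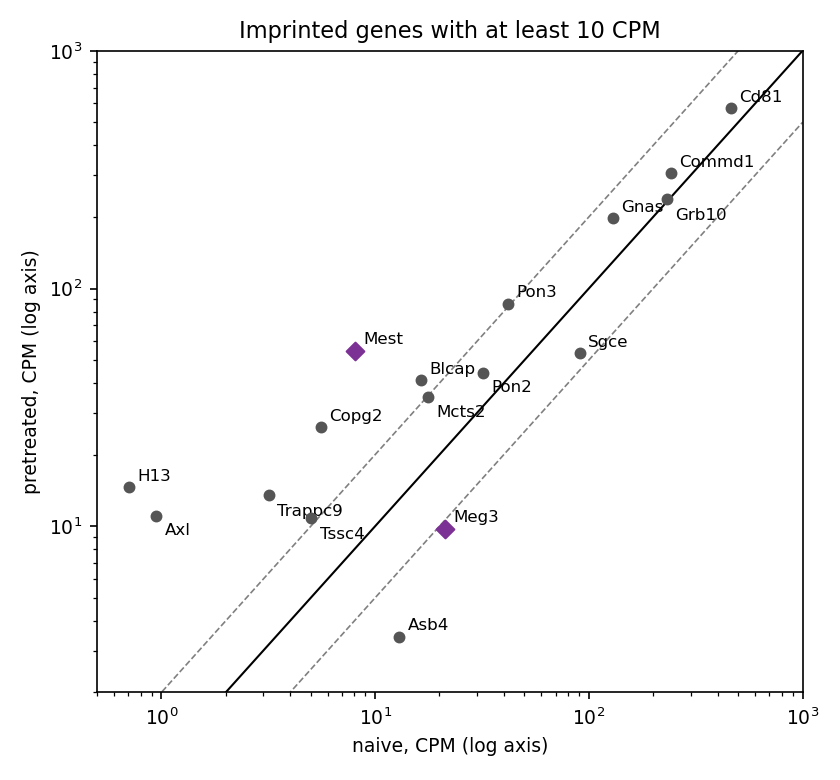
Pooled CPM in naïve (x) and pretreated (y) cells, both on log axes, for Mest and Meg3 (diamonds) and the 15 other imprinted genes that reached 10 CPM in a group (circles), with a solid line at equal levels and dashed lines at 2-fold. Mest, at 8.10 and 54.8, lies above the upper line with 7 others, and Meg3 and Asb4 lie below the lower line.

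In the insulin-like growth factor pathway, where Igf2 and Igf2r belong, 12 of 15 listed genes had a sense peak and 4 reached the minimum level, of which 2 were higher and 1 lower, too few to set against the 30.4% and 11.8% of all genes. M6pr, the other mannose 6-phosphate receptor, was within 2-fold at 106 and 132 CPM. Igfbp6, a binding protein that prefers IGF2, was higher at 61.4 and 131 (log2 ratio 1.10), and Igf2bp2, an RNA-binding protein, at 18.2 and 40.7 (1.16). Igf1, the ligand of the same receptor as IGF2, was lower at 68.1 and 29.9 (−1.19), in 55 of 92 and 28 of 85 cells. Under median-of-ratios scaling neither Igfbp6 nor Igf2bp2 was past 2-fold. Igf2bp3 held 3.43 and 3.70 CPM, below the minimum.

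Among 16 cell cycle genes, the group to which Cdkn1c belongs, 9 reached the minimum level, 3 were higher, 1 lower and 5 within 2-fold, with a median log2 ratio of 0.30. These counts are close to the 30.4% and 11.8% of all genes called higher and lower. Cdkn1a, the close relative of Cdkn1c that p53 induces, held 162 and 199 CPM, and Cdk4 588 and 823. Cdkn2b, an inhibitor of Cdk4 and Cdk6, was higher at 5.57 and 47.7 (log2 ratio 3.10), as were Trp53 at 137 and 355 (1.38) and Ccnd1 at 22.2 and 52.8 (1.25). Top2a, a topoisomerase of dividing cells, was lower at 54.2 and 16.7 (−1.70). Pcna, a clamp of the replication fork, had a log2 ratio of −0.99, just inside 2-fold, and was past it without the top cell of each group. Ccnd2 had −0.78. Under median-of-ratios scaling 1 of the 9 was higher and 3 lower, beside 18.3% and 18.5% of all genes.

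Of 14 genes on a list for imprint maintenance, 6 reached the minimum level. Of these, 3 were higher, 1 lower and 2 within 2-fold, beside 30.4% higher and 11.8% lower among all genes. Under median-of-ratios scaling 2 were higher and 1 lower, beside 18.3% and 18.5% of all genes. Dnmt1, the methyltransferase that copies methylation after replication, was lower at 54.4 and 26.7 CPM (log2 ratio −1.03, −1.07 to −0.98), which is near the 2-fold limit and was inside it with tags in peaks as the denominator. Uhrf1, which brings Dnmt1 to newly copied DNA, was higher at 1.51 and 13.6 (3.18) in 5 and 16 cells. Tet3, an oxidase of methylated cytosine, was higher at 2.69 and 11.6 (2.10) in 4 and 10 cells, and Arid4a at 17.01 and 46.5 (1.45). Uhrf1 and Tet3 fell under the minimum level without the top cell of each group, and Tet3 also did under median-of-ratios scaling. The 2 within 2-fold were Smc3, a cohesin subunit, at 112 and 129, and Arid4b, a relative of Arid4a, at 20.1 and 28.6 (0.51).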

How the data were processed

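Single-cell start-site libraries of 192 cells were used, 1 deposited peak list per cell. Per the submitters' processing notes, Bowtie2 and HOMER were used with mm9. Per the file headers, peaks of 150 bp were called in each cell and strand with HOMER, at a minimum of 200 tags per 10000000. The deposited signal is tags per 10000000 tags of the cell, and the focus ratio is the deposited fraction of a peak's tags near its main position. Signal was turned back into tags with the header totals: all 1082504 peaks came out whole within 0.1, and the 426263116 tags equal the header tags in peaks. A single value can lie under 200, as the lowest Meg3 value did. No molecular identifiers are named, so a tag is a read.

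Peaks were matched within 2 bp to windows of the authors' RefSeq table. The gene strand came from the signs of the deposited distances for 21258 of 25056 promoters, from GENCODE vM21 symbols for 3712, and was unknown for 86. Where both were available, 20834 of 20883 were the same. Cells with under 230563 tags (10% of the median) were left out, 4 naïve and 11 pretreated. Log2 ratios had 0.5 tag added to each sum, and intervals are exact Poisson or Clopper-Pearson at 95%. No 2 cells shared a total and a peak number. The members and all lists were chosen with earlier results of these data known. Named genes are all members and, per list, the 5 with the most tags and calls past 2-fold, up to 8, with 5 more of the imprinted list named after their values were seen. Promoter sequences matched 8 of 10 members. A pair of matrices with 384 unnamed columns was not used here. Python 3.11.15, pandas 2.3.3, numpy 2.4.6 and scipy 1.17.1 were used.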

Additional observations from a re-analysis of the deposited data

Results flagged for a closer look

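Tags outside the counted sense promoter peaks were listed in windows named for 5 of the members, and they have no unstimulated control to be read against. On the strand opposite the gene within 1000 bp of a start, 560 tags of Meg3 were listed in naïve cells and 1123 in pretreated cells, and Igf2r held 362 and 635. On the gene's strand beyond 1000 bp, Meg3 held 1007 and 1864 tags in 8 cells of each group, and Igf2r 805 and 766 tags in 8 and 9 cells. Opposite to Igf2r and beyond 1000 bp, 10386 tags in 45 naïve cells and 13814 tags in 43 pretreated cells were listed in windows named Igf2r, the largest of these sums. Windows named for Dlk1 held 423 sense tags, for Cdkn1c 177 sense tags and for H19 33 antisense tags beyond 1000 bp, all in naïve cells. Those named for Dlk1 and H19 are annotated as intergenic, so their tags were not shown to belong to these genes. The window named for Cdkn1c is annotated as 3′ UTR.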

How the results depend on the processing

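Mest stayed past 2-fold higher under every alternative run, with log2 ratios from 2.35 (each cell weighing the same) to 2.86 (without the top cell of each group). The count of members past 2-fold lower, 1 (Meg3), became 0 with the mean over cells, with peaks on either strand, without the top cell of each group and with a minimum of 50 CPM. The ratio of Meg3 kept its sign throughout, at −1.504 with median-of-ratios scaling and −1.03 with tags in listed peaks as the denominator. Of the other imprinted genes, the 7 past 2-fold higher became 3 with median-of-ratios scaling, 16 with no minimum level and 1 with the minimum of 50. The 1 past 2-fold lower became 2, 3 and 0 under the same settings. The shares of all genes moved as well. Those called higher went from 30.4% to 18.3%, 40.6% and 25.5%, and those called lower from 11.8% to 18.5%, 19.1% and 11.3%. A median over the members is not given, since 2 reached the minimum. The shares of cells that list Mest or Meg3 moved by less than their intervals among cells between the quartiles of total tags. No paired analysis was possible because the groups were compared without a test and cell numbers pair no cells. Depth limits every count: a gene below about 20 CPM in a cell is not listed there, and with 1 sample per group the spread between cultures is unknown.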
